A study of Homo sapiens with 8 samples.

Results

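The m6A peaks of 6 genes were examined in BCPAP, a human papillary thyroid cancer cell line. HK1, PFKP and SLC16A1 act in glycolysis and lactate transport, BNIP3 is a hypoxia-induced mitochondrial protein, and MCL1 and BCL2L1 are pro-survival members of the BCL2 family. Every peak whose gene name was one of these symbols was taken, which gave 8 peaks of the 10987 that the authors' deposited table lists, and 6 of its 7081 gene names. The genes were picked with their results in this table already known, so their values are a description and no test was made on them.

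The study precipitated N6-methyladenosine (m6A) from fragmented poly(A) RNA and sequenced it beside the unprecipitated input. There were 8 libraries: 2 m6A immunoprecipitates and 2 inputs from cells with METTL3 knocked down, and 2 m6A immunoprecipitates and 2 inputs from control cells. Titles of the knockdown libraries carry sh1 or sh3, with 1 input and 1 immunoprecipitate of each. All titles begin with A or B, and sh1 occurs only under A and sh3 only under B, each beside its own control libraries. What A and B stand for is not stated, so sh1 and sh3 cannot be told apart from A and B. The control genotype is labelled only as control, and the labels do not say if a group's libraries are from separate cultures. The values analysed are the authors' comparison of the conditions, with 1 log2 fold change, 1 p-value and 1 false discovery rate (FDR) per peak. They carry no replicate spread, and the depth of the libraries is unknown. It is not stated if the FDR takes in the spread between sh1 and sh3, and transcript levels were not analysed here. The header does not name the condition in the denominator. "Lower" and "higher" read the fold change as METTL3 knockdown relative to control, and every direction would turn around if it were the reverse. METTL3 has 0 peaks in the authors' deposited table, so the targeted gene could not be checked here. Of 13 thyroid and epithelial marker genes, 2 (PAX8 and KRT8) have a peak, and a peak list does not show how much of a transcript the cells hold.

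As background, METTL3 is the catalytic subunit of the nuclear complex that methylates adenosines in mRNA, often near stop codons and in 3' UTRs, and the mark is known to affect mRNA stability and translation. Glycolysis turns glucose into pyruvate. Hexokinases trap glucose in the cell by phosphorylation, phosphofructokinase makes the committed step, and monocarboxylate transporters carry the lactate made from pyruvate across the plasma membrane. Low oxygen stabilises the transcription factor HIF-1, which binds DNA at a short element with the core ACGTG and induces many glycolytic genes and BNIP3. BNIP3 sits in the outer mitochondrial membrane, where it promotes mitophagy and binds pro-survival BCL2 proteins. MCL1 and BCL-XL, the long product of BCL2L1, hold back the pore formers BAX and BAK and so prevent the release of cytochrome c.

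Lower and higher peaks were divided by gene. HK1, PFKP and BNIP3 each had a 3' UTR peak that was lower in METTL3 knockdown cells, SLC16A1 had a 3' UTR peak that was higher, and MCL1 and BCL2L1 had 5' UTR peaks that were slightly higher. The threshold for a call was 0.05 on the deposited FDR. By this rule 7 of the 8 peaks were called, 3 lower and 4 higher, against 17.1% of all peaks in the authors' deposited table. The 4 higher peaks include an overlapping pair at BCL2L1. Of all peaks, 10.6% were called lower and 6.52% higher. Since the genes were picked from this contrast, the share called among them says nothing beyond how they were picked. The authors' deposited table puts the log2 fold changes of the 8 peaks between -0.98 at BNIP3 and 1.53 at SLC16A1.

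**Figure D1:**
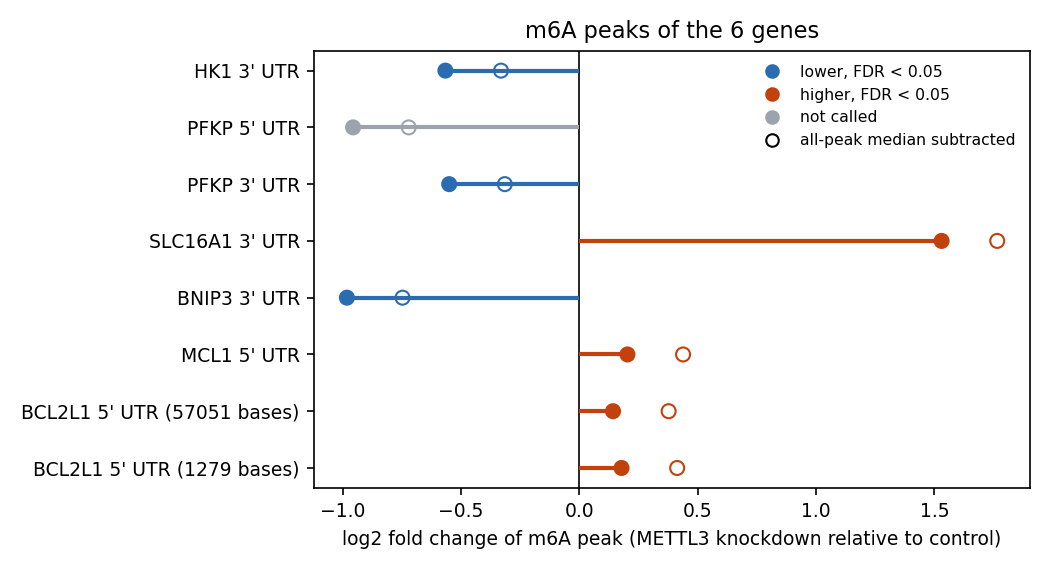
Log2 fold change of each m6A peak of the 6 genes (x axis, METTL3 knockdown relative to control), one peak per line. Filled circles are the authors' values, open circles the same values after the median of all peaks (-0.235) was subtracted, and colours give the call at an FDR under 0.05. HK1, BNIP3 and both PFKP peaks lie below 0, with the PFKP 5' UTR peak not called, and SLC16A1, MCL1 and BCL2L1 lie above 0 on either scale.

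HK1 encodes hexokinase 1, which phosphorylates glucose in the first step of glycolysis and can dock on the outer mitochondrial membrane. Its 1 peak (ENSG00000156515, chromosome 10, 69386770 to 69392243, GRCh38) is given in the authors' deposited table at 0.675-fold, a log2 fold change of -0.57, with FDR 2.04e-09. It had the smallest FDR of the 8 peaks, and 107 of all peaks had a smaller p. The authors' annotation places it in a 3' UTR, but the span of 5474 bases ends 9639 bases before the 3' end of the gene as RefSeq bounds it (GRCh38.p14). Which transcript the label refers to was not tested.

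PFKP encodes the platelet-type phosphofructokinase, the isoform common in proliferating cells. It was the 1 gene of the 6 with peaks in separate places near both ends. The 3' UTR peak (ENSG00000067057, chromosome 10, 3136613 to 3136822) stands in the authors' deposited table at 0.683-fold, -0.55 on the log2 scale (FDR 6.46e-08). It covers 210 bases at the very end of the gene and runs 17 bases past the RefSeq bound. The 5' UTR peak (chromosome 10, 3069285 to 3070289) was not called: the authors' deposited table gives it a log2 fold change of -0.96, a p of 0.0372 and an FDR of 0.195. It begins 96 bases downstream of a RefSeq start site. The signs of the PFKP pair were the same, and the larger fold change belonged to the peak with the larger FDR. Whether the pair differ in size cannot be told, since no error is given for either.

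SLC16A1 encodes MCT1, a proton-coupled carrier of lactate and pyruvate. Its 1 peak (ENSG00000155380, chromosome 1, 112911847 to 112912147) was higher: per the authors' deposited table by 2.89-fold, 1.53 on the log2 scale (FDR 0.00263). This was the largest change of the 8 peaks and, among the 7 called, the one with the largest FDR. Called increases in 3' UTRs made up 5.94% of all 3' UTR peaks in the authors' deposited table, and 28 of those 279 peaks rose more. The peak covers exactly the last 301 bases of the gene in RefSeq. A RefSeq long non-coding RNA gene, LOC124904342, spans the same 301 bases, and the table has no strand, so reads of these overlapping genes cannot be told apart.

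The related lactate exporter SLC16A3 (MCT4) was looked at after its values were seen. Its 6 peaks form 4 separate places, and 5 of the 6 had a positive fold change in the authors' deposited table. The positive ones include overlapping peaks of the same place, at log2 fold changes of 0.336, 0.341 and 0.342. All 6 also overlap the RefSeq gene CSNK1D, so these reads cannot be assigned without strand. The authors' deposited table has log2 fold changes between -1.29 and 0.87 for them and FDRs between 0.239 and 0.408, so 0 were called. SLC16A1 was thus the 1 gene with a called peak among the 3 glucose and monocarboxylate transport genes with a peak.

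BNIP3 had the largest called decrease of the 6 genes. Its 1 peak (ENSG00000176171, chromosome 10, 131968878 to 131969895) fell to 0.506-fold of control by the authors' deposited table, -0.98 on the log2 scale (FDR 1.55e-08). Called decreases made up 15.9% of all 3' UTR peaks in the authors' deposited table, and 73 of those 745 peaks fell more than BNIP3. For HK1 and PFKP the counts of 3' UTR peaks that fell more were 232 and 242 of the 745 in the authors' deposited table. The BNIP3 peak spans 1018 bases and ends 1194 bases before the 3' end of the gene. Which transcript its 3' UTR label refers to was not tested. All 1018 bases also lie within the RefSeq bounds of PPP2R2D, a protein phosphatase subunit gene. The 1 peak assigned to PPP2R2D, looked up because of this overlap, lies 56869 bases away, and the authors' deposited table gives it -0.75 (FDR 0.527). RefSeq also lists 46 BNIP3 pseudogenes. Peaks assigned to numbered pseudogenes of any of the 6 genes came to 0 in the table, and how reads with several placements were treated is not given in the sources used here.

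**Figure D2:**
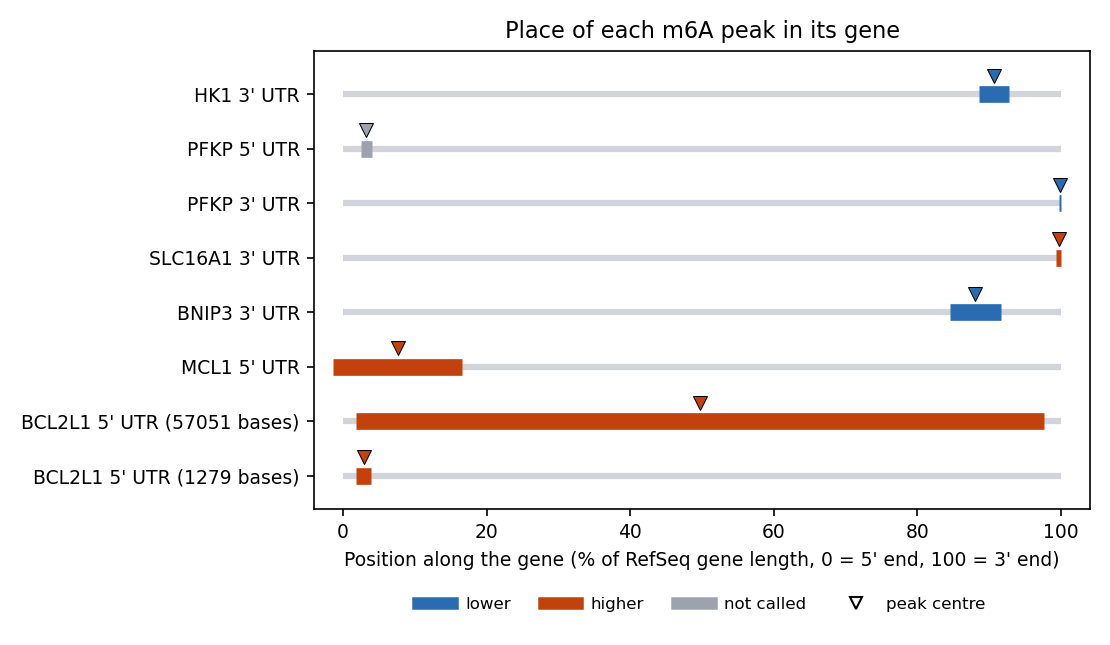
Place of each m6A peak along its gene, as percent of the RefSeq gene length from the 5' end (0) to the 3' end (100), introns included. Coloured bars are the peak spans, triangles their centres, and colours the call. The 4 peaks labelled 3' UTR lie in the last part of their genes, and the narrow BCL2L1 peak lies inside the one that covers 95.9% of the gene.

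The hypoxia core ACGTG occurs in a RefSeq promoter window of BNIP3 and of PFKP. The windows (GRCh38.p14) run from 250 bases before to 50 bases after a start site and exist for 4 of the 6 genes, without SLC16A1 and MCL1. ACGTG, read on both strands, occurs in 2 of the 14 windows of these genes, in the 1 window of BNIP3 and in 1 of 4 of PFKP, but in 0 of 7 of HK1 and 0 of 2 of BCL2L1. That is 14.3% of their windows, against 21.4% of all 35116 windows, so its presence is common and describes letters, not binding. With 7 of the 14 windows from HK1 alone, the shares do not show whether the core is rarer in these genes. The stretches below are shown because they hold a match to the core of the HIF-1 element described above, with ACGTG in capitals, 5' to 3' on the gene's strand. In BNIP3 the core begins 133 bases upstream of the start site (chr10:131982039-131982068, minus strand) and, as part of CACGTG, reads the same on either strand. In PFKP it begins 139 bases upstream of the start site nearest to the 5' UTR peak (chr10:3069038-3069067, plus strand).
BNIP3: cgcacgcgccgcACGTGccacacgcacccc
PFKP: ccacgagcgcctACGTGatgcccggcccgt

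MCL1 and BCL2L1 had small increases at peaks labelled 5' UTR. MCL1 encodes a short-lived pro-survival protein. Its 1 peak (ENSG00000143384, chromosome 1, 150578775 to 150579678) was higher by 1.15-fold, which is 0.20 on the log2 scale of the authors' deposited table (FDR 0.0017). The peak begins 68 bases upstream of the RefSeq 5' end and covers 16.5% of this short gene. BCL2L1 encodes BCL-XL and, by alternative splicing, the shorter pro-death BCL-XS. It had a peak of 1279 bases (ENSG00000171552, chromosome 20, 31721626 to 31722904) that was higher by 1.13-fold, or 0.18 on the log2 scale of the authors' deposited table (FDR 3.55e-07). The other BCL2L1 peak (chromosome 20, 31665855 to 31722905) was higher by 1.10-fold, or 0.14 on that scale of the authors' deposited table (FDR 1.45e-07).

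The narrow BCL2L1 peak lies entirely within the wide one, so they are 1 place, and the 8 peaks of the 6 genes form 7 places. The wide span of 57051 bases includes introns and covers 95.9% of the RefSeq gene, and 41737 of its bases are shared with the antisense RNA gene BCL2L1-AS1. The 5' UTR label therefore says little about where in the transcript the wide peak lies. In the direction of transcription both peaks begin close to a RefSeq start site of BCL2L1, the narrow one 36 bases upstream of it, and run downstream over it.

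Small folds went with small p-values at these BCL2 family genes. Of all peaks, 163 and 173 had a smaller p than the wide and the narrow BCL2L1 peak, and 613 had a smaller p than the MCL1 peak. Called increases made up 8.00% of all 5' UTR peaks in the authors' deposited table. Of those 203 peaks, 3 rose less than the wide BCL2L1 peak, 12 less than the narrow one and 16 less than MCL1. Over the table, 150 of the 1883 called peaks (7.97%) moved by under 0.2 on the log2 scale in either direction, the BCL2L1 pair among them. SLC16A1 was at the other end, among the 314 called peaks (16.7%) that moved by 1 or more on that scale.

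**Figure D3:**
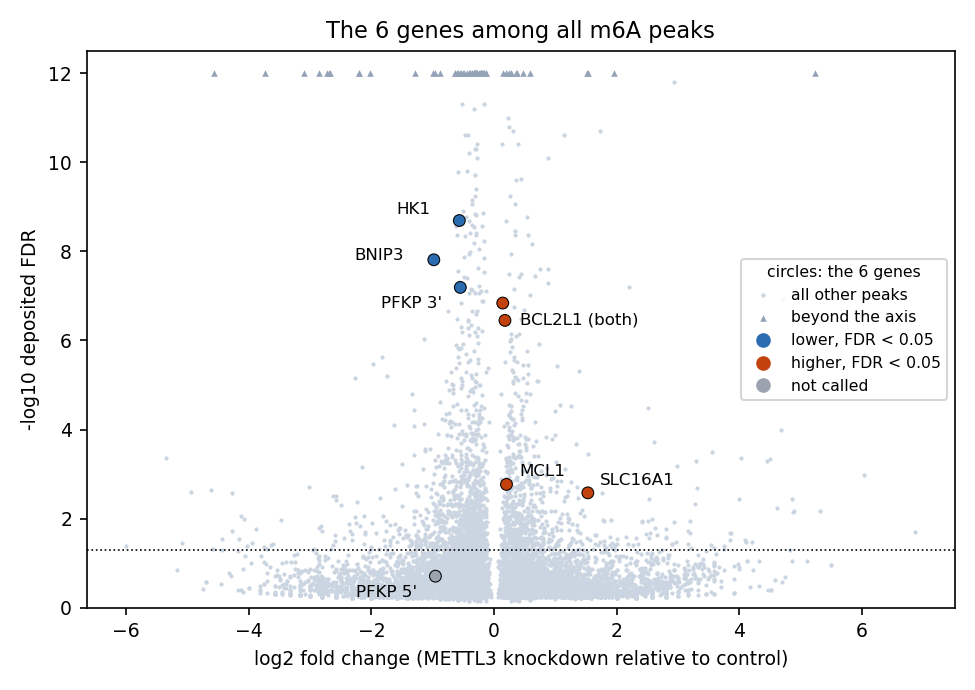
Log2 fold change (x axis, METTL3 knockdown relative to control) against -log10 of the deposited FDR (y axis) for all 10987 peaks, with the 8 peaks of the 6 genes as circles and a dotted line at an FDR of 0.05. Triangles at the top are the 71 peaks with values above 12. BCL2L1 sits high and close to 0, SLC16A1 sits far to the right at a lower height, and the PFKP 5' UTR peak lies under the line.

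By region, 3 of the 4 peaks in 3' UTRs were called lower and 1 higher, where 15.9% of all 3' UTR peaks were called lower and 5.94% higher. Of the 4 peaks in 5' UTRs, 0 were called lower and 3 higher, where 8.79% of all 5' UTR peaks were called lower and 8.00% higher. The genes were picked from this comparison, so nothing is read from these shares. The 4 peaks in 3' UTRs had a median log2 fold change of -0.56 and the 4 in 5' UTRs one of 0.16 in the authors' deposited table. The BCL2L1 pair among the 5' UTR peaks lie in the same place. That place is counted more than once in the 5' UTR counts, and the 5' UTR median lies between its values. Over all peaks the medians were -0.30 in 3' UTRs and -0.14 in 5' UTRs in the authors' deposited table. The median of all peaks together was -0.24 (-0.235 before rounding). Relative to that shift, BNIP3 had -0.75, HK1 -0.33 and the PFKP 3' UTR peak -0.32, while SLC16A1 had 1.76, MCL1 0.44 and the BCL2L1 pair 0.41 and 0.38. The direction of all 8 peaks was kept. Subtracting the shift made the decreases smaller and the increases of MCL1 and BCL2L1 more than 1.5 times as large.

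Other genes of the same pathways were counted from 11 lists of 168 genes, chosen with earlier results of these data known. In all, 55 of the 168 genes had a peak in the authors' deposited table. Of their 82 peaks 14 were called (17.1%, the same share as among all peaks), 8 lower and 6 higher. Without the 6 genes described above, 7 of 74 peaks were called (9.46%), 5 lower and 2 higher. Of the 14 called peaks, 7 thus belonged to the 6 genes that had been picked for their results.

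Among glycolytic enzymes, 8 of 28 genes had a peak, and of the 9 peaks 2 were called lower, 0 higher and 7 not called in the authors' deposited table. The called ones were HK1 and the PFKP 3' UTR peak. Over all peaks, 10.6% were called lower and 6.52% higher. The 9 peaks of these enzymes had a median of -0.57 in the authors' deposited table, and 7 lay below 0. Those 7 include the HK1 peak and both PFKP peaks, picked with their results known, and the median equals the HK1 value. Regulators of glycolysis, such as the PFKFB enzymes and pyruvate dehydrogenase kinases, had 8 peaks in 5 genes. None of these 8 passed the deposited FDR, whose smallest value among them was 0.0537 in the authors' deposited table. Of the 8, 7 lay below 0, with a list median of -0.58. The median of all peaks was also below 0, at -0.235, so nothing is read from counts below 0. By the annotation terms in the file itself, 16 genes with 18 peaks carried the glycolysis and gluconeogenesis term of KEGG. Of those 18 peaks 3 were called, all lower in the authors' deposited table, HK1 and PFKP among them.

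Hypoxia genes did not share a direction. Of the 16 peaks of 11 hypoxia target genes, 3 were called lower, BNIP3 among them, and 1 higher in the authors' deposited table. Over all peaks, 10.6% were called lower and 6.52% higher. Beside BNIP3, P4HA2, a collagen prolyl hydroxylase subunit, had a called 5' UTR peak at -0.61 (FDR 0.0224, authors' deposited table). Its other peaks, at -0.70 (FDR 0.113) and -0.90 (FDR 0.456), were not called, and the one at -0.90 overlaps the called peak. STC2, the secreted glycoprotein stanniocalcin 2, had a 3' UTR peak at -0.54 (FDR 0.0011, authors' deposited table). LOX, the collagen cross-linking enzyme lysyl oxidase, had a 5' UTR peak at 0.25 (FDR 0.00955, authors' deposited table). The LOX peak overlaps the RefSeq gene SRFBP1, and the called P4HA2 peak overlaps SLC22A4. Genes that sense hypoxia and their cofactors had 12 peaks in 8 genes with 1 called. It was a 3' UTR peak of the HIF coactivator CREBBP at 0.30 in the authors' deposited table (FDR 0.00468). The other CREBBP peaks, labelled exon, were not called, at -0.75 (FDR 0.111) and 0.24 (FDR 0.207). By the KEGG terms in the file, 30 genes with 39 peaks carried the HIF-1 signaling term. Of these peaks 6 were called, 4 lower and 2 higher, HK1 among the lower, where 17.1% of all peaks were called.

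In the BCL2 family, all called genes but BCL2L12 belong to the 6 picked with their results known, so the directions of these classes are not independent of that choice. Of the 5 peaks of 4 pro-survival genes, the 3 called were those of MCL1 and BCL2L1, with the overlapping BCL2L1 peaks in the same place. The remaining pro-survival genes with a peak, BCL2 and BCL2L2, were named after their values were seen, with -0.76 and -0.36 in the authors' deposited table at FDRs of 0.336 and 0.363. The peaks of the pro-survival genes thus did not all lie on the same side of 0. The 5 peaks of 5 BH3-only and related genes all lay below 0 and 2 were called, BNIP3 and BCL2L12. Over all peaks the median was -0.235 and 17.1% were called. BCL2L12, a BCL2-related protein, had a 5' UTR peak at -0.40 (FDR 1.38e-05, authors' deposited table), and this peak overlaps the RefSeq gene IRF3. The difference between these classes was not tested. The pore formers BAX, BAK1 and BOK had 1 peak among them, which was not called (FDR 0.0562 in the authors' deposited table).

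Partner pathways of BNIP3 and MCL1 were counted last. Genes of MCL1 turnover had 11 peaks in 5 genes with 1 called, a 3' UTR peak of BTRC, the substrate receptor of a ubiquitin ligase, at -0.45 in the authors' deposited table (FDR 0.0123). Mitophagy receptors and adaptors had 8 peaks in 6 genes with 2 called lower, BNIP3 and GABARAPL2, and 7 lay below 0. Over all peaks, 10.6% were called lower, 6.52% higher, and the median was -0.235. GABARAPL2, an ATG8-family protein that mitophagy receptors bind, had a 3' UTR peak at -0.66 (FDR 0.0191, authors' deposited table). The downstream caspase and inhibitor list had 2 peaks in 2 of 16 genes, with 0 called. Under the KEGG terms in the file, mitophagy had 13 of 40 peaks called (8 lower and 5 higher) and apoptosis 8 of 66 (4 lower and 4 higher) in the authors' deposited table, where 17.1% of all peaks were called. The called mitophagy peaks include those of BNIP3 and BCL2L1, and the called apoptosis peaks those of MCL1 and BCL2L1.

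**Figure D4:**
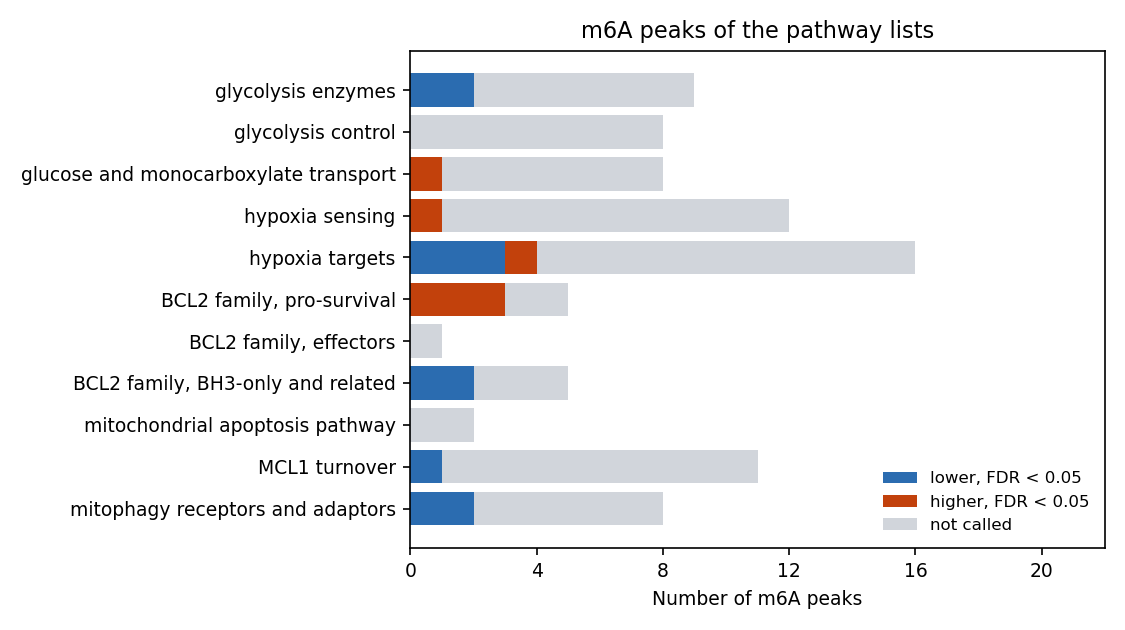
Number of m6A peaks per pathway list (x axis), divided into peaks called lower, called higher and not called at an FDR under 0.05; BNIP3 is in 3 lists. Glycolytic enzymes show 2 lower of 9 peaks, pro-survival BCL2 genes 3 higher of 5, and the regulators of glycolysis 0 called of 8. The 3 higher pro-survival peaks include an overlapping pair at BCL2L1. Of all peaks, 10.6% were called lower and 6.52% higher.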

How the data were processed

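BCPAP cells with METTL3 knockdown and control cells were profiled by m6A immunoprecipitation and input sequencing, 8 libraries in 4 groups of 2. Per the submitters' processing notes, the tools were edgeR, StringTie, HISAT2, fastp, ChIPseeker and HOMER, with builds hg38 and GRCh38 and no stated roles. The differential caller, and whether libraries were pooled, are not given in these sources. The authors deposited 1 table of peaks with positions, annotation, a score, a p-value and a log2 fold change. The deposited score is, per the file headers, the log10 of an FDR. The score was raised back to a linear FDR here. Benjamini-Hochberg values recomputed over the table were smaller than the deposited FDR (median ratio of deposited to recomputed 1.90), so the table was not taken to hold all peaks tested. Per-library depth is unknown.

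The members, lists and rules were chosen with earlier results of these data known. Calls used a threshold of 0.05 on the deposited FDR. Peaks sharing at least 1 base counted as 1 place. Named genes were the 6 members and up to 5 called genes per list with the largest absolute change, and any outside this rule are marked as chosen after their values were seen. Positions were set against RefSeq gene bounds (GRCh38.p14), and 4 of 6 members matched a promoter window. The Benjamini-Hochberg and overlap steps were tested on simulated data. Alternatives were other thresholds, subtraction of the median, and other ways to combine peaks. Python 3.11.15, pandas 2.3.3, numpy 2.4.6 and matplotlib 3.10.9 were used.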

Additional observations from a re-analysis of the deposited data

How the results depend on the processing

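At an FDR under 0.01 or with the recomputed Benjamini-Hochberg value, 7 peaks of the 6 genes were called, 3 of them lower, as reported. At an FDR under 0.01, 10 list genes and 9.24% of all peaks were called. With the recomputed value under 0.05, these were 19 list genes and 24.2%. When a change of 0.5 or more on the log2 scale was also required, 4 peaks of the 6 genes, 7 list genes and 7.73% of all peaks were called; at 1 or more, these were 1 peak (SLC16A1), 0 lower peaks, 1 list gene and 2.86%, against 7 peaks, 3 lower peaks, 13 list genes and 17.1% as reported. With the median subtracted, the values were HK1 -0.33, PFKP -0.72 (5' UTR) and -0.32 (3' UTR), SLC16A1 1.76, BNIP3 -0.75, MCL1 0.44 and BCL2L1 0.38 (wide) and 0.41 (narrow). By the peak with the largest absolute change, PFKP had -0.96 and BCL2L1 0.18, and by the median over peaks -0.75 and 0.16, against -0.55 and 0.14 by smallest p. No result reversed. The count of 7 places was the same when at least 50% of the shorter peak had to be shared. Not run were peak blocks and the m6A motif share, for which neither blocks nor a genome was used here, and leaving out single libraries, since the table holds no values per library. No paired analysis was possible because the result comes from the authors' table with no values per library.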
